A study of Homo sapiens with 30 samples.

Results

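Tubulin mRNAs were examined for LARP6 binding through 8 genes chosen by name, *TUBA1A*, *TUBA1B*, *TUBA1C*, *TUBB*, *TUBB2A*, *TUBB3*, *TUBB4B* and *TUBB6*, out of 62750 gene identifiers in the input tables. A peak was counted for a gene when its centre lay inside the gene on the same strand. By this rule 45 of 14334 peaks of full-length LARP6 (FL) belonged to the 8 genes. The numbers were 43 of 17180 peaks for ΔNTR, 43 of 15870 for ΔCTR, 0 of 636 for ΔLa-module and 2 of 291 for ΔNTD. The study asked which parts of LARP6, an RNA-binding protein with a folded La-module between disordered regions, are needed to bind RNA in living cells. It used iCLIP, in which UV light links a protein to the RNA it touches and sequencing marks the linked bases, in U-87 MG, an established human glioblastoma line. There were 18 iCLIP samples, 3 for each of 5 myc-tagged variants and 3 for parental cells, and they reached this report as 1 pooled peak list per variant. Input RNA was read from 6 long-RNA libraries, 1 per line.

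All groups shared the U-87 MG background and, per the labels, doxycycline at 60 ng/mL for 24 h. The 5 variant lines carried a codon-optimised, doxycycline-inducible myc-LARP6 construct brought in by lentivirus, and were kept as puromycin-selected populations. FL carried the whole protein. ΔNTR lacked the disordered N-terminal region, ΔLa-module lacked the folded RNA-binding part, ΔNTD lacked both together and ΔCTR lacked the C-terminal region. Parental cells carried no construct and still expressed their own LARP6, as did every other line. The endogenous *LARP6* gene had 1398 to 1872 input counts over the 6 lines. Because the construct was codon-optimised, this value does not check the labels.

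Microtubules are polymers of dimers of 1 α-tubulin and 1 β-tubulin, and they carry transport, shape the cell and pull chromosomes apart. Each vertebrate tubulin is made from several near-identical genes, called isotypes. Cells also adjust tubulin mRNA by autoregulation: when free dimers are abundant, the factor TTC5 recognises the start of the nascent tubulin chain on the ribosome and the translated mRNA is degraded. *TUBA1A*, *TUBA1B* and *TUBA1C* encode α-tubulins, *TUBA1A* being the isotype typical of developing neurons and *TUBA1B* a broadly expressed one. *TUBB* and *TUBB4B* encode broadly expressed β-tubulins, *TUBB2A* and *TUBB3* are known from neurons, and *TUBB6* encodes a more divergent β isotype.

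On GRCh38 the α genes were *TUBA1A* (ENSG00000167552.15, chr12:49184686-49189080, minus strand), *TUBA1B* (ENSG00000123416.15, chr12:49127782-49131397, minus strand) and *TUBA1C* (ENSG00000167553.17, chr12:49188736-49274600, plus strand). The β genes were *TUBB* (ENSG00000196230.14, chr6:30717435-30725538, plus strand), *TUBB2A* (ENSG00000137267.7, chr6:3153497-3157544, minus strand), *TUBB3* (ENSG00000258947.8, chr16:89921392-89938761, plus strand), *TUBB4B* (ENSG00000188229.6, chr9:137241287-137243707, plus strand) and *TUBB6* (ENSG00000176014.13, chr18:12307669-12344320, plus strand). Each reference mRNA, the MANE Select transcript, had 4 exons and between 444 and 451 codons. Coding sequences were 96.1 to 97.2% identical among the 3 α genes and 81.3 to 88.4% identical among the 5 β genes. Between an α and a β gene the identity was 51.5 to 53.3%.

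Repeated sequence limits what short reads can tell apart. Of all windows of 31 nt in the exons, 68.7% for *TUBA1B* and 61.2% for *TUBA1A* occurred more than once in the genome. The share was 68.9% for *TUBB2A* and 41.7% for *TUBA1C*. *TUBB6*, the most distinct, had 6.65% of such windows. Copies were counted over the whole genome, and those in other tubulin genes were not separated from those elsewhere, such as in pseudogenes. At the FL peaks of the 8 genes, 13 of 45 centre windows occurred more than once, against 4.22% of all FL peaks. How the deposited peaks treated reads that fit several places is not given in the sources used here, and its part in the values below was not tested.

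Of the 17 sites with a peak in FL, ΔNTR and ΔCTR, those that the results turn on are shown. Capitals mark bases inside a peak of all 3 lists, and each sequence is 29 nt of the GRCh38 genome, read on the strand of the gene.
TUBA1B 5'UTR, chr12:49131326-49131354: AACCGGGACCCGGTGTCTGCTCCTGTCGC
TUBA1B coding, chr12:49129556-49129584: TCCTTCAACACCTTCTTCAGTGAGACGGG
TUBA1B 3'UTR, chr12:49127849-49127877: CTGGTTAGATTGTTTTCACTTGGTGATCA
TUBA1C coding, chr12:49273006-49273034: atGCTGAGCAATACCACAGCTGTTGCCga
TUBB6 coding, chr18:12310985-12311013: cagGCACCATGGACAGCGTGCGGTCTggg
TUBB 3'UTR, first site of the end cluster, chr6:30725155-30725183: tcccaaAAAAGAATGAACACCCCtgactc
TUBB 3'UTR, next site, chr6:30725198-30725226: ctgcCACATCAGTGTTTGAGTCAGTcccc
TUBB 3'UTR, last site, chr6:30725311-30725339: tTTGTTCTATCCTACATTTGAGATTTCta
C and T made up 41.4% of the bases shown for *TUBB6* and 69.0% of those shown for the last *TUBB* site.

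The first comparison asked which tubulin mRNAs FL bound. FL had at least 1 peak in 6 of the 8 genes. Among all protein-coding genes with at least 100 FL input counts, 42.3% held an FL peak, and among those with at least 10000 counts 95.2% did. The 5 tubulin genes with over 10000 counts, *TUBA1B*, *TUBA1C*, *TUBB*, *TUBB4B* and *TUBB6*, all held peaks, so their presence in the list was that of most equally abundant mRNAs. *TUBA1A*, with 2647 counts, also held 1. *TUBB2A* (463 counts) and *TUBB3* (115 counts) held none. A list cut at a score of 3 cannot show weaker binding, so this means only that no peak was listed.

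The score of a peak is the whole number that the peak caller gave it, summed over the 3 replicates, and it was treated as a count here. *TUBA1B* had the highest summed FL score, 112 over 8 peaks. *TUBA1C* had 84 over 8 peaks, *TUBB* 68 over 15 and *TUBB6* 62 over 8. *TUBA1A* had a score of 24 in a single peak, and *TUBB4B* had 17 over 5 peaks. The 3 α genes together held 220 in 17 peaks and the 5 β genes 147 in 28, so α peaks were fewer and stronger. Of the FL peaks, 1 of the 17 in α genes and 15 of the 28 in β genes had the lowest possible score of 3, against 53.7% of all FL peaks.

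Per input count the order changed. Following the study's formula, the summed score was divided by the gene's counts in the input of the same line and multiplied by 1000. For FL this gave 9.07 for *TUBA1A* (95% counting interval 5.81 to 13.5), 5.54 for *TUBA1C* (4.42 to 6.86) and 4.64 for *TUBB6* (3.56 to 5.95). These neighbours in the order overlapped in their intervals. *TUBA1B* followed at 2.09 (1.72 to 2.52) and *TUBB* at 1.93 (1.501 to 2.45), which could not be told apart from each other but lay below *TUBB6*. *TUBB4B* came last of the 6 at 1.00 (0.582 to 1.60). Among protein-coding genes with at least 2000 counts, where the median was 1.70, *TUBA1A* stood at percentile 90.8, *TUBB* at 53.1 and *TUBB4B* at 34.8. The 8 genes as a group had 2.67 (2.40 to 2.96). Input reads mapped to several places were not counted, and the share of repeated windows was 61.2% for *TUBA1A* but 6.65% for *TUBB6*. The part of this in the order and the percentiles was not tested.

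The extremes were the same in both deletion lists that kept peaks. *TUBA1A* was highest of the 6 genes at 5.60 in ΔNTR and 15.7 in ΔCTR, and *TUBB4B* was lowest at 0.410 and 0.871. With unstranded counts the value of *TUBA1B* would be 23.1 in place of 2.09. Its unstranded count was 9.07% of its count on the reverse strand, and 72.6% of its exonic bases lie opposite the antisense gene *TUBA1B-AS1*. The stranded counts are used throughout.

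**Figure D1:**
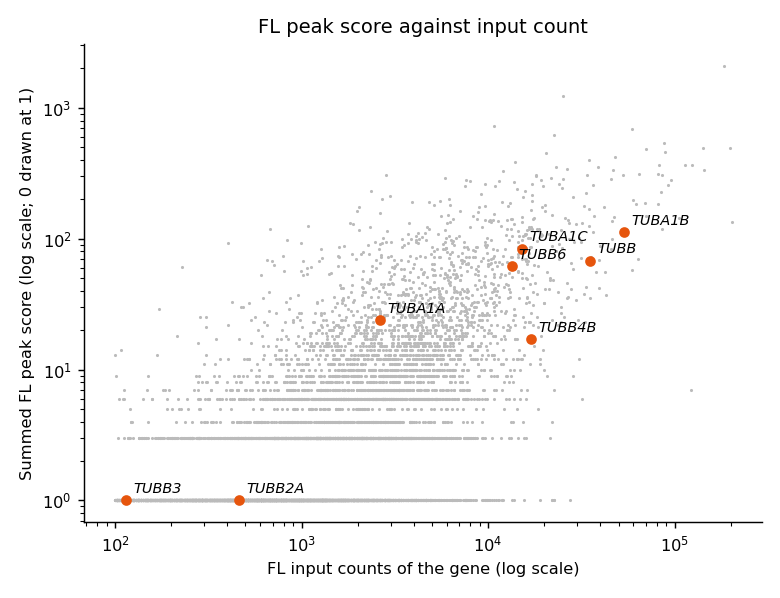
Summed FL peak score (vertical axis, log scale, with a score of 0 drawn at 1) against the FL input counts of the gene (horizontal axis, log scale), for 10552 protein-coding genes with at least 100 counts (grey) and the 8 tubulin genes (orange). *TUBB4B* lies low for its 17014 counts, and *TUBA1A* lies high for its 2647.

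The next question was where on the mRNAs the peaks lay. Of the 45 FL peaks, 23 were centred in coding sequence, 15 in 3'UTRs, 6 in 5'UTRs and 1 in an intron. Coding peaks held 58.6% of the tubulin score, against 34.5% over all peaks in protein-coding genes. 5'UTR peaks held 10.4%, against 4.30%, and 3'UTR peaks held 30.2%, against 55.1%. These shares are not corrected for region length. Per kb of the tubulin reference mRNAs together, the FL score was 20.0 in coding sequence, 28.2 in 3'UTRs and 52.9 in 5'UTRs. Coding sequence was thus the lowest per kb. In *TUBA1C* and *TUBB6* it was above the 3'UTR, at 51.2 against 6.54 and 39.6 against 12.3. A value per kb over all protein-coding genes was not computed. The split by region rests on the order in which overlapping annotations are read. With 3'UTR before coding sequence, the coding count became 9 in place of 23 and the 3'UTR count 29 in place of 15. On the reference mRNAs all 23 coding peaks were centred in coding sequence, as drawn in the map of peaks along the transcripts. The move to 3'UTR came from other annotated transcripts of the genes.

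The genes differed in the place of their strongest site. *TUBA1B*, at 1627 nt, carried a site at the cap end, one early in the coding sequence and one in the 3'UTR. At its coding site, centred 248 nt from the mRNA start, the score was 29 in FL. *TUBA1C* carried its strongest FL peak, 32, late in the coding sequence at 1169 nt, followed by one of 15 at 1231 nt. Its reference 3'UTR is 1376 nt long, but the only peaks there were centred 1474 to 1506 nt from the start of the mRNA, in all 3 lists. *TUBA1A* had peaks in its 3'UTR alone. *TUBB6* had its strongest peak, 27, at 274 nt, in coding sequence, and *TUBB* had its strongest, 13, in the 3'UTR, 210 nt from the mRNA end. *TUBB4B* had 5 peaks of 3 or 4 spread over the mRNA.

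**Figure D2:**
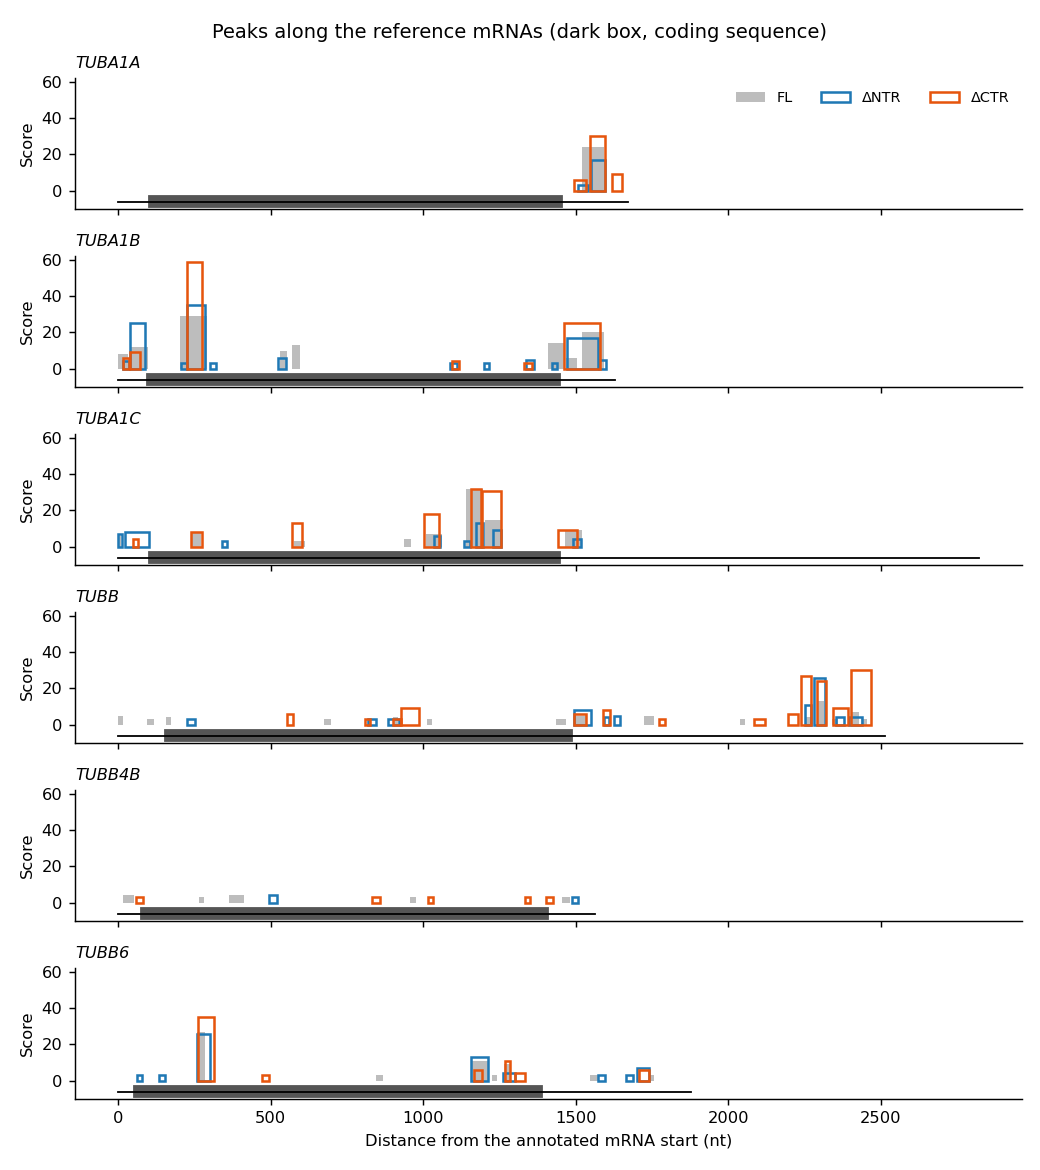
Peaks of FL (grey fill), ΔNTR (blue outline) and ΔCTR (orange outline) along the reference mRNAs of 6 tubulin genes. The horizontal axis is the distance from the mRNA start in nt, the height is the peak score, and the dark box is the coding sequence. The strongest *TUBB6* site is present in all 3 lists, at 27, 26 and 35, and the end of the *TUBB* 3'UTR is highest in ΔCTR.

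The early coding site of *TUBA1B* had a counterpart in *TUBA1C*. Both were centred at codons 51 to 54, and *TUBA1C* scored 8 in FL and 8 in ΔCTR with no peak in ΔNTR. At the same codons *TUBA1A* had no peak in any list. The 29 nt at the centre are shown for the 3 α genes, with capitals here marking bases that differ from *TUBA1B*.
TUBA1B, chr12:49129556-49129584: tccttcaacaccttcttcagtgagacggg
TUBA1A, chr12:49186667-49186695: tccttcaacaccttcttcagtgagacggg
TUBA1C, chr12:49269603-49269631: tccttcaacaccttcttcagtgaAacggg
*TUBA1A* and *TUBA1B* had 0 differing bases here and *TUBA1C* had 1, although the 31 nt around the centre occurred only once in the genome in all 3. *TUBA1A* also had 2647 input counts against 53528 for *TUBA1B*. Reads from this stretch that do not reach a differing base cannot be assigned to 1 of the α genes.

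The coding site of *TUBB6* was compared with the other β genes over the 29 nt shown for it. *TUBB*, *TUBB2A*, *TUBB3* and *TUBB4B* differed from it in 9, 7, 6 and 5 of these bases and had no peak over them in FL, ΔNTR or ΔCTR. An FL peak of 3 in *TUBB4B*, chr9:137241936-137241952, ended just before this window and shared 1 aligned codon with the *TUBB6* FL peak. Further pairs of α peaks lay where the genes are identical around the peak. The ΔNTR peak of 3 in *TUBA1B* at codon 371 shared aligned codons with the ΔCTR peak of 31 in *TUBA1C* at codon 375. There 31 of 31 aligned nt were the same. The FL peak of 13 in *TUBA1B* at codon 163 and the ΔCTR peak of 13 in *TUBA1C* at codon 163 had identical windows, 31 of 31 nt, which occurred 3 times in the genome.

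The mRNA starts are shown because 4 genes, *TUBA1B*, *TUBA1C*, *TUBB* and *TUBB4B*, had an FL peak centred within 50 nt of them. The first 25 nt follow, with capitals marking bases inside a peak of at least 1 of FL, ΔNTR and ΔCTR.
TUBA1B, chr12:49131371-49131395: AGTGCGTTACTTACCTCGACTCTTA
TUBA1C, chr12:49265082-49265106: ACTACTTCTCCCccggactccttgG
TUBB, chr6:30720352-30720376: CTCTCAGAACCTTCCTGccgtcgcg
TUBB4B, chr9:137241287-137241311: agcactctgcgcgcccgCTCTTCTG
At these annotated starts *TUBB* alone began with a run of C and T, 5 bases long. The FL peaks of *TUBA1B*, *TUBA1C* and *TUBB* also covered bases upstream of the annotated start. Which base came first in these cells was not tested. The scores were 8 for *TUBA1B*, 6 for *TUBA1C*, 5 for *TUBB* and 4 for *TUBB4B*.

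The start codon was looked at because autoregulation acts through the first residues of the chain. Here the signal was weak. Over the first 4 codons, *TUBB* had an FL peak of 4, *TUBB6* a ΔNTR peak of 3 and *TUBB4B* a ΔCTR peak of 3, each in 1 list only. The FL 5'UTR peak of 12 in *TUBA1B* also reached the start codon. *TUBA1A*, *TUBA1C*, *TUBB2A* and *TUBB3* had no peak there.

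The second comparison asked what the deletions changed. Removing the La-module left no peak in any of the 8 genes. Removing the whole N-terminal domain left 2, a coding peak of 3 in *TUBB* and a coding peak of 3 in *TUBB4B*. Over all protein-coding genes with at least 100 counts, 4.04% held a ΔLa-module peak and 2.19% a ΔNTD peak. Among genes with at least 10000 counts the shares were 33.0% and 15.9%, against 0 of 5 and 2 of 5 of the tubulin genes of that abundance. With peaks of a score above 3 only, neither list had a tubulin peak.

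ΔNTR kept peaks in 6 of the 8 genes and ΔCTR in 7, where 43.3% and 45.1% of protein-coding genes with at least 100 counts held one. The seventh gene in ΔCTR was *TUBB2A*, with 1 peak of 3 in its 3'UTR. *TUBB3* had no peak in any list. Of its exonic bases, 92.8% are shared on the same strand with the read-through gene ENSG00000198211, and reads that fit both genes are not counted for either, so its 107 to 158 counts per library may understate it.

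For each gene the share of the list's total score was compared with its share in FL. The ratio is the ΔNTR or ΔCTR share over the FL share, with an exact 95% interval that covers counting error only. The 8 genes together had 367 with FL, 333 with ΔNTR and 492 with ΔCTR. For ΔNTR the ratio was 1.00 (0.862 to 1.17). For ΔCTR it was 1.16 (1.01 to 1.33), and 1.00 without the highest FL peak of each gene. Both ratios use the same FL list, and all lists had the same parental peaks subtracted.

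*TUBB* had the highest ΔCTR ratio of the tubulin genes with an FL peak. Its score was 68 with FL, 71 with ΔNTR and 137 with ΔCTR. The ΔCTR ratio was 1.74 (1.29 to 2.37) and the ΔNTR ratio 1.15 (0.816 to 1.63). Of 5 tubulin genes with a score of at least 50 in both lists together, *TUBB* alone had a ΔCTR interval above 1, against 16.6% of all genes reaching that score. None of the 5 lay below 1 in ΔCTR, against 18.4% of all. Input counts of *TUBB* were 1.02 times as high in ΔCTR as in FL.

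The difference lay at the 3' end. In the last 300 nt of the *TUBB* mRNA, a window chosen after its values were seen, the score was 30 with FL, 45 with ΔNTR and 90 with ΔCTR. The ΔCTR ratio there was 2.60 (1.70 to 4.07) and the ΔNTR ratio 1.66 (1.02 to 2.73). Over the rest of the gene the scores were 38, 26 and 47, with ratios of 1.07 (0.683 to 1.69) for ΔCTR and 0.757 (0.441 to 1.28) for ΔNTR. At the first site of this cluster the score was 4 with FL, 11 with ΔNTR and 27 with ΔCTR. At the next it was 13, 26 and 24, and at the last 10, 4 and 30. The interval lay above 1 for ΔCTR at the first site (ratio 5.84, 2.04 to 22.98) and at the last (2.60, 1.24 to 5.95), and for ΔNTR at the middle one (2.21, 1.096 to 4.69). The window held 5 FL peaks and 4 in each deletion list. At shared sites only, the *TUBB* ratio was 2.00 for ΔNTR and 2.27 for ΔCTR. The list totals were there limited to shared peaks too, so these ratios have another scale than those above. At the last site the 31 nt around the FL peak of 7 and the ΔNTR peak of 4 occurred 3 times in the genome. Those around the ΔCTR peak of 30 occurred once. With single-copy windows only, the *TUBB* ratio in ΔCTR was 2.25. That setting dropped the FL peak of 7 and kept the ΔCTR peak of 30, so it did not treat the lists alike at this site.

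*TUBA1A* scored 24 with FL, 20 with ΔNTR and 45 with ΔCTR. Its ΔCTR ratio of 1.62 (0.968 to 2.79) could not be told apart from 1. *TUBA1C* scored 84, 53 and 115, with a ΔNTR ratio of 0.698 (0.485 to 0.996) and a ΔCTR ratio of 1.19 (0.887 to 1.59). Of 4 tubulin genes that reached a score of 50 with ΔNTR, *TUBA1C* alone had an interval below 1, against 26.3% of all genes, and none lay above 1, against 22.6%. Counting only peaks whose window occurs once in the genome, the *TUBA1C* ratio was 0.920 in ΔNTR and 0.768 in ΔCTR. This setting dropped FL peaks of 7 and 15 but kept the ΔNTR peaks of 6 and 9 that overlap them. ΔCTR peaks of 13, 18 and 31 were dropped. The lists were thus not filtered alike at the same sites. *TUBB6* kept nearly the same score in each list, 62, 62 and 71, with ratios of 1.11 (0.765 to 1.60) and 0.991 (0.695 to 1.42). *TUBB4B* scored 17, 7 and 15, and its ratios of 0.455 (0.1596 to 1.16) and 0.764 (0.355 to 1.63) had intervals that held 1.

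*TUBA1B* as a whole scored 112 with FL, 120 with ΔNTR and 106 with ΔCTR, with ratios of 1.18 (0.908 to 1.55) and 0.819 (0.622 to 1.08). Its sites were not alike. In the 5'UTR the score was 20 with FL, 37 with ΔNTR and 15 with ΔCTR, a ΔNTR ratio of 2.05 (1.16 to 3.72). The main 5'UTR site, centred at 71 nt, scored 12, 25 and 9. The coding site at 248 nt scored 29, 38 and 59, a ΔCTR ratio of 1.76 (1.11 to 2.85). The last site, merged over the end of the coding sequence and the 3'UTR, scored 40, 25 and 25, a ΔCTR ratio of 0.541 (0.315 to 0.914). Its FL score included a peak of 14 centred in coding sequence, and the 3'UTR peaks alone scored 26, 22 and 25, a ΔCTR ratio of 0.832 (0.461 to 1.5) that could not be told apart from 1. Without its highest FL peak *TUBA1B* had a ΔCTR ratio of 0.490.

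Over sites with a score of at least 20 in FL and the deletion list together, 2 of 9 tubulin sites lay above 1 in ΔNTR and 1 lay below, against 8.16% and 29.8% of all such sites. In ΔCTR 3 of 11 lay above and 1 below, against 12.9% and 15.3%. The sites above 1 in ΔNTR were the 5'UTR site of *TUBA1B* and the second site of the *TUBB* cluster, and the one below was the late coding site of *TUBA1C*, at 47 in FL and 25 in ΔNTR. Those above 1 in ΔCTR were the coding site of *TUBA1B* and the first and last sites of the *TUBB* cluster, and the one below was the merged last site of *TUBA1B*.

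By region, the tubulin 5'UTR score was 38 with FL, 52 with ΔNTR and 22 with ΔCTR. The ΔNTR ratio was 1.51 (0.977 to 2.36), an interval that held 1, beside 1.11 (1.06 to 1.16) over the 5'UTRs of all protein-coding genes. The ΔCTR ratio of 0.501 (0.282 to 0.869) stood beside 0.590 (0.563 to 0.619) over the same 5'UTRs. Of the tubulin 5'UTR score, the α genes had 26, 52 and 19, a ΔNTR ratio of 2.21 (1.36 to 3.69). The β genes had 12, 0 and 3, a ΔNTR ratio of 0 with an upper limit of 0.398. The β score of 12 came from FL peaks of 5, 3 and 4. A list cut at a score of 3 cannot show whether weaker binding stayed there. The tubulin 3'UTR score was 111, 124 and 210, and the ΔCTR ratio of 1.64 (1.295 to 2.08) stood beside 1.07 (1.06 to 1.08) over all 3'UTRs. Of this 3'UTR score *TUBB* alone held 43, 62 and 116, a ΔCTR ratio of 2.34 (1.63 to 3.40). The α genes held 59, 46 and 79, a ΔCTR ratio of 1.16 (0.817 to 1.65) that could not be told apart from 1. The coding score was 215, 157 and 257, with ratios of 0.807 (0.653 to 0.997) for ΔNTR and 1.03 (0.860 to 1.25) for ΔCTR. Over all coding sequences they were 1.06 (1.04 to 1.07) and 1.00 (0.988 to 1.02). Of the tubulin coding score *TUBA1C* held 69, 34 and 102, a ΔNTR ratio of 0.545 (0.350 to 0.833). The ΔNTR coding ratio was 1.02 (0.710 to 1.47) for *TUBA1B* and 1.02 (0.679 to 1.54) for *TUBB6*. It was 0.585 (0.230 to 1.39) for *TUBB* and 0.442 (0.101 to 1.53) for *TUBB4B*, and these intervals held 1. The lower coding share in ΔNTR was thus not shared by all the genes.

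Peaks were also compared one by one. Of the 45 FL peaks, 23 shared at least 1 nt with a ΔNTR peak and 23 with a ΔCTR peak, 51.1% in both cases (37.0 to 65.04, Wilson interval), against 35.3% and 37.9% of all FL peaks. When the overlap had to cover at least 50% of both peaks, the shares were 31.1% and 33.3%. Strong FL peaks were met more often than weak ones. Of 12 FL peaks with a score of 10 or more, 11 met a ΔNTR peak and 10 a ΔCTR peak, as did 88.2% and 93.2% of all FL peaks of that score. Of 16 peaks with a score of 3, 2 met a ΔNTR peak and 3 a ΔCTR peak, against 17.0% and 18.1%. The strong peak met by neither list was the one of 13 in *TUBA1B* with 3 copies in the genome. None of the 5 *TUBB4B* peaks was met by either list.

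In the other direction, 17 of 43 ΔNTR peaks and 22 of 43 ΔCTR peaks overlapped no FL peak, against 69.9% and 65.6% of these lists. Merging overlapping peaks gave 73 tubulin sites, of which 17 had a peak in all 3 lists, 10 in 2 lists and 46 in 1 list. The 17 shared sites held 71.4% of the FL score, 76.3% of the ΔNTR score and 77.2% of the ΔCTR score.

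**Figure D3:**
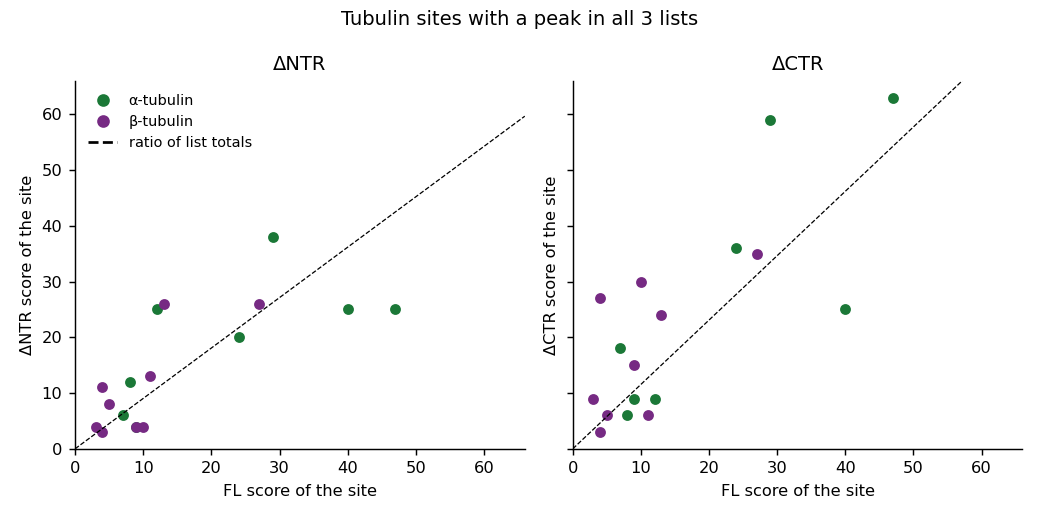
Score of the 17 tubulin sites with a peak in all 3 lists, FL on the horizontal axis and ΔNTR (left) or ΔCTR (right) on the vertical axis, for α-tubulin (green) and β-tubulin genes (purple). The dashed line is the ratio of the list totals, 0.904 and 1.16. The *TUBA1B* coding site, at 29 in FL and 59 in ΔCTR, stands highest above the line on the right.

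In sequence, the 31 nt around tubulin FL peaks held 57.2% C and T (SD 15.6, n = 45 peaks), against 52.4% (SD 12.4) over all FL peaks. The share was 74.2% at the 6 5'UTR peaks, 64.1% at the 15 3'UTR peaks and 48.2% at the 23 coding peaks. For all protein-coding genes it was 54.4%, 54.2% and 49.9%. The motif CG, read on the strand of the gene, was in 16 of the 23 coding windows and 1 of the 15 3'UTR windows, against 56.6% and 28.7% of all such windows. TTTT was in 5 of the 15 3'UTR windows, against 26.8%, and ATTTA was in 0 of all 45, against 3.63%.

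The last comparison asked whether the tubulin mRNAs themselves differed between the lines. None of the 40 fold changes over parental cells reached 2-fold on the log2(CPM + 1) scale, where CPM is the count scaled to library size with edgeR's TMM factors. Over 15651 genes with at least 10 counts in each library, the share past 2-fold was 0.0511% for FL, 0.0703% for ΔCTR, 0.300% for ΔNTD, 0.383% for ΔLa-module and 0.677% for ΔNTR. Each line had 1 library, so no difference between lines has a replicate check. In such bulk RNA, fewer cells with a transcript and less of it per cell cannot be told apart.

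The levels spanned a wide range. Per kb of mRNA the median over the 6 libraries was 1264 CPM for *TUBA1B*, 513 for *TUBB*, 406 for *TUBB4B*, 278 for *TUBB6* and 196 for *TUBA1C*. It was 62.6 for *TUBA1A*, 10.2 for *TUBB2A* and 2.56 for *TUBB3*. Reads mapped to several places are missing from these levels, and how much this lowered each gene was not tested. The 8 genes together took 0.492 to 0.545% of the counts in genes.

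*TUBA1A* had 143 CPM in the ΔNTR library, 114 with ΔLa-module, 106 with ΔCTR, 104 with ΔNTD and 94.2 with FL, and 88.1 in parental cells. The highest value, in ΔNTR, was 1.63 times the parental one (1.54 to 1.71, counting error only), at percentile 97.9 of all genes in that line. *TUBB2A* had 24.3 CPM in the ΔNTR library, 18.3 with ΔNTD, 16.5 with both ΔLa-module and FL, 15.2 with ΔCTR and 15.1 in parental cells. It too was highest in ΔNTR, 1.61 times the parental value (1.41 to 1.83), at percentile 97.4. *TUBB6* had 456 CPM in parental cells against 583 in ΔNTR and 582 in ΔLa-module, 1.28 times in both, at percentiles 89.4 and 92.8. *TUBA1B*, *TUBA1C*, *TUBB* and *TUBB4B* differed by at most 1.13 times between their highest and lowest library, where the median of all genes was 1.28.

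**Figure D4:**
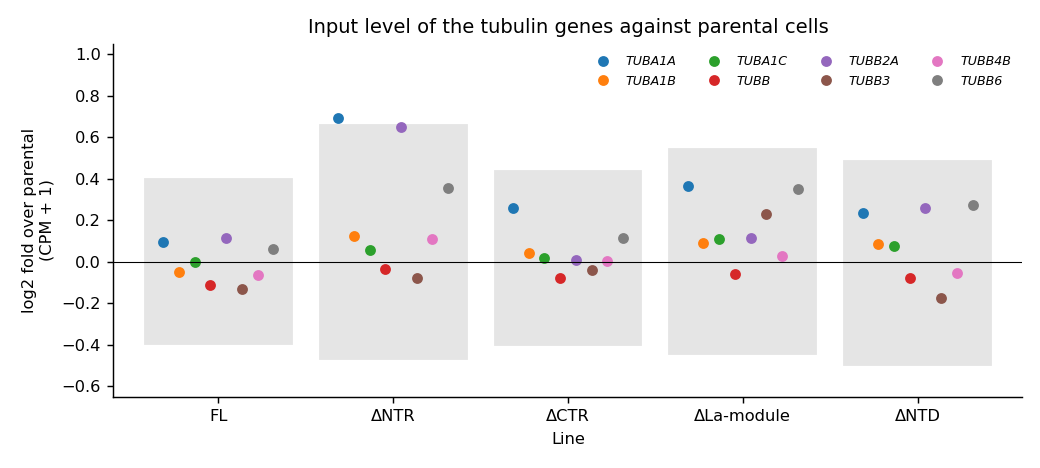
log2 fold change over parental cells (vertical axis, log2 of CPM + 1) of the 8 tubulin genes in the 5 variant lines (horizontal axis), 1 library per line. Grey boxes hold the central 95% of 15651 genes. Only *TUBA1A* in ΔNTR, at 0.69, lies outside its box, whose upper edge is at 0.66.

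The genes whose log2 CPM over the 6 libraries was most like the summed tubulin level were *RAB20* (Pearson r = 0.99), *VIM* (r = 0.99) and *HSPB1* (r = 0.98), out of 10902 genes with at least 100 counts in each library. The points are 6 single libraries, and this is a description only.

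Other genes of the pathway were read from 3 lists. Of 14 other tubulin genes 5 had at least 100 FL input counts and 2 of these held FL peaks, *TUBA4A* with a score of 10 in 3 peaks and *TUBG1*, which encodes the γ-tubulin that nucleates microtubules, with 3 in 1 peak. Of 24 genes for tubulin folding and autoregulation, 9 held FL peaks, 37.5% against 42.3% of protein-coding genes with at least 100 counts. The highest were the chaperonin subunit genes *CCT4* (21), *CCT5* (13) and *TCP1* (11). The autoregulation factors *TTC5*, *SCAPER* and *CNOT11*, singled out after their values were seen, had FL scores of 3, 3 and 8 in 1 peak each. Of 16 genes for microtubule-binding and tubulin-modifying proteins, 11 held FL peaks, 68.8% against the same 42.3%. Several were abundant, such as *DYNC1H1* and *MAP1B* with 113846 and 64312 FL input counts. Of protein-coding genes with at least 10000 counts, 95.2% held an FL peak. The highest were *DYNC1H1*, the dynein heavy chain, with 363, *MAP1B* with 312 and *MAP1A* with 70. The median FL score per 1000 counts was 0, 0 and 2.33 in the 3 lists. It was 0 over all protein-coding genes with at least 100 counts and 1.70 over those with at least 2000. No value of the lists passed 2-fold in input, of 25, 120 and 80 compared.

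The line was checked against its label. The 6 libraries held 25027075 to 28692476 counts in genes. Of 8 glial or glioblastoma markers, *VIM* (7033 to 8011 CPM), *CD44* (2085 to 2327 CPM), *EGFR* (323 to 397 CPM) and *NES* (52.1 to 58.0 CPM) were well counted, *OLIG2* had 41 to 70 counts, and *GFAP*, *S100B* and *SOX2* had at most 6. Of the neuronal markers, *SNAP25* had 58.1 to 65.8 CPM, while *RBFOX3* had at most 4 counts and *SYP* 24 to 43. *PTPRC* had at most 2 counts and *MBP* and *EPCAM* 37 to 104.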

How the data were processed

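The authors trimmed the iCLIP reads, removed rRNA and tRNA reads with Bowtie2, aligned the rest with STAR to GRCh38.p13 with GENCODE 42, removed duplicates with UMI-tools, called peaks with Clippy in each replicate, merged 3 replicates with summed scores and subtracted parental peaks with bedtools 2.30.0. The deposited peak score is not scaled to depth, and how deeply the iCLIP libraries were sequenced is not known here. The deposited long-RNA gene counts came from Trim Galore 0.6.10 and STAR 2.7.10b. The reverse column was used, since its total was 8.76 to 9.71 times the forward one. Reads outside genes, ambiguous or mapped to several places, 34.4 to 37.8% of reads, stayed out. The 6 small-RNA input libraries were not used here.

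Peaks were assigned by their centre to genes of GENCODE 44 on GRCh38, in the order coding sequence, 5'UTR, 3'UTR, non-coding exon, intron. 62672 of 62750 gene identifiers matched. Counts were scaled with edgeR 4.0.16 (TMM), and fold changes used log2(CPM + 1), which understates changes of low genes. Coding sequences were aligned by codon with mafft 7.526. Intervals of 95% were exact Poisson for counts, exact binomial for ratios of 2 counts, and Wilson for shares. They cover counting error only, and input reads without molecular identifiers are not independent molecules. Pooled lists and single libraries allow no test against replicate spread, and no p-value is given. The interval script was tested on simulated data. Ratios were read for genes with a score of at least 50, and sites of at least 20, in both lists together.

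The members, gene lists and rules were chosen with earlier results of these data known. The text names all 8 members, up to 3 genes of highest FL score per pathway list, the 3 genes most like the summed tubulin level, and the cell type markers. Alternatives were a score above 3, any overlap with the gene, another region order, other scalings, shared sites, stricter overlap, other counts, pseudocounts and filters. Restricting to single-copy windows was added after seeing the data.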

Additional observations from a re-analysis of the deposited data

How the results depend on the processing

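Of 306 recomputed values, 262 stayed within their counting interval or within 1.5 times the count, 44 did not. Of the recomputed ratios 13 crossed 1, and 4 log2 fold changes crossed 0, each for a result whose own interval held no change. Among them the ΔNTR ratio of all 8 genes was 0.962 without the highest FL peaks, that of *TUBB* 0.905 there, and the ΔCTR ratio of the α genes 0.692. That of *TUBA1C* was 0.866 there and 0.768 with single-copy windows. No ratio whose interval excluded 1 crossed it. With a score above 3 the FL peaks fell to 29, the ΔLa-module and ΔNTD peaks to 0, and the FL score per 1000 counts to 2.32. The share of FL peaks met by ΔNTR and ΔCTR was then 72.4 and 69.0%, and 31.1 and 33.3% with an overlap of at least 50% of both peaks. At shared sites only, with the list totals limited to shared peaks too, the ΔNTR ratio was 1.33. Without the highest FL peak of each gene the ΔCTR ratio was 1.00. Unstranded counts gave an FL score per 1000 counts of 5.81. Counting any annotated transcript end, 15 in place of 7 FL peaks lay within 150 nt of an end. The cause of these shifts was not tested beyond what each setting itself removes. Of 160 recomputed log2 fold changes of the members 147 stayed within counting error, 11 moved with unstranded counts and 2 without TMM, and none reached 2-fold. No paired analysis was possible because each variant has a single merged list without replicate numbers, and input libraries share only replicate 1. Leaving out a replicate could not be done either. The cut at a score of 3, the unknown iCLIP depth and sequence that occurs more than once in the genome limit every statement on weak or missing peaks.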
